A study of Mus musculus with 6 samples.

Results

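The H2 genes are the genes of the mouse major histocompatibility complex, and they were taken as every protein-coding gene on chromosome 17 of the RefSeq table (assembly GRCm38.p6, the same build as mm10) whose symbol starts with H2-. Of 38 such symbols, H2-Q8, H2-Q9 and H2-T18 lay on alternate loci with coordinates outside mm10 and were not analysed here. The remaining 35 genes, of 21774 protein-coding genes in all, were 2 classical class I genes, 6 Q, 5 T and 12 M genes of nonclassical class I, 9 class II genes and H2-Ke6. H2-Ke6 (Hsd17b8) encodes a steroid dehydrogenase that shares only the prefix, and it was kept out of the class comparisons. H2-T-ps is protein-coding in the table despite its name.

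The assay was ATAC-seq, where a transposase (Tn5) inserts adapters into accessible DNA, so that peaks of reads mark open chromatin. The cells were B220+CD93+ immature B cells of the spleen of Tcrd-GDL mice, a strain whose γδ T cells express a diphtheria toxin receptor and can so be removed by the toxin. Of the 6 libraries, 3 were of untreated Tcrd-GDL mice and 3 of Tcrd-GDL mice that had received diphtheria toxin (DTx) intraperitoneally, 15 ng per gram of body weight in each of 2 injections with 48 h between them, and were examined on day 8 counted from the first. The comparison asks whether chromatin of immature B cells differs when γδ T cells have been depleted. Both groups are of the same strain and no group received toxin without the receptor, so depletion and other effects of the toxin cannot be told apart. The labels give no age, no genetic background and no H2 haplotype, and they do not state whether each library is a different mouse, so the p-values reflect only the spread between these libraries, which may be technical.

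The data are 1 list of peaks per library, with 36760, 42504 and 56503 peaks in untreated 1, 2 and 3 and 44661, 56266 and 60811 in DTx 1, 2 and 3. Read totals were not given, so depth is unknown and list length is the only sign of it. Untreated 3 and DTx 1 stand apart in that their lists have a summit column and the other 4 do not, so each group holds 2 lists of one layout and 1 of the other. The equal-length lists used below hold, for each library, its 36760 peaks with the highest −log10 q, the length of the shortest list. The labelled cell type was checked against its markers: 9 of 10 B cell markers had a peak within 1 kb of a gene end in all 6 libraries. Over all protein-coding genes, 49.5% had one in all 6 libraries and 40.6% in none. Of 8 T cell markers in the table, 2 (Cd3d and Cd5) had one in all 6 and Cd3e, Cd8a and Zap70 in none. The dendritic cell markers had 6 of 10 in all 6 libraries, near the share of all genes, with Itgax, Ccr9 and Cd209a in none. The macrophage and monocyte markers had 2 of 10, with Lyz2, Adgre1 and Ly6c2 among those in none. Per library, 2 to 4 T cell markers were open in the untreated and 2 to 5 in the DTx libraries, 6 to 7 dendritic markers in either group, and 3 to 6 myeloid markers in the untreated and 5 to 6 in the DTx libraries. The part of other cells in the H2 peaks was not tested.

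Class I molecules are a heavy chain paired with β2-microglobulin, and they carry peptides from inside the cell to CD8 T cells and natural killer receptors. The classical heavy chains are made in almost every nucleated cell, whereas the Q, T and M chains are nonclassical relatives with narrower or specialised roles. Class II molecules are α and β chain pairs that present peptides from endocytosed protein to CD4 T cells, and B cells are among the few cell types that make them without being induced. Class I promoters are known for a κB site, an interferon element and a shared X-Y module, and class II promoters for an X box, an X2 box and a Y box that RFX, CREB and NF-Y bind and CIITA acts through.

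The RefSeq promoter table, which holds 250 bases before and 50 after a start site on GRCm38.p6, matched 32 of the 35 genes. H2-Ab1, H2-Q1 and H2-T24 had no entry. The class II stretches below are examples and do not stand for the whole class, all of which had an open gene end in every library. They show letters just upstream of the start sites of these genes. Not printed are H2-Oa (CTGATTGG at base −46 from its start site), H2-Ob (GATTGG at −58) and H2-DMa (GATTGG at −199). The stretches are written 5′ to 3′ on the gene's strand, and capitals mark GATTGG (the core of the Y box CTGATTGG, which holds CCAAT on the other strand), GCAACNGAT (part of the X box) and TGACG (part of the X2 box, on either strand).
H2-DMb2: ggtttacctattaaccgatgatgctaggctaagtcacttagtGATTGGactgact
H2-DMb1: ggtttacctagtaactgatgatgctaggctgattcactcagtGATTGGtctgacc
H2-Aa: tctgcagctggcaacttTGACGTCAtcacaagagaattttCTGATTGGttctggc
H2-Eb1: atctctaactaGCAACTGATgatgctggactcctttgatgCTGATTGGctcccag
H2-Eb2: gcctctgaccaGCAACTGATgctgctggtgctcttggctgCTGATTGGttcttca

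These stretches lie at chr17:34145116-34145170 (+ strand, H2-DMb2), chr17:34153087-34153141 (+ strand, H2-DMb1), chr17:34287860-34287914 (− strand, H2-Aa), chr17:34305765-34305819 (+ strand, H2-Eb1) and chr17:34325532-34325586 (+ strand, H2-Eb2). Searched on both strands of the whole 300-base promoters, GATTGG occurred in 8 of 8 class II genes, 2 of 2 classical, 3 of 5 Q, 3 of 4 T and 9 of 12 M genes, against 16.1% of all 32851 promoters in the table. The full Y box CTGATTGG occurred in 4 of 8 class II genes (H2-Oa, H2-Aa, H2-Eb1 and H2-Eb2) and in 4.10% of all promoters. The X box letters GCAACNGAT occurred in H2-Eb1 and H2-Eb2 alone among the H2 genes with a promoter in the table, and in 0.414% of all promoters. TGACG occurred in H2-Aa alone of the class II genes and in 20.8% of all promoters.

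The class I stretches below were aligned to the 44 bases around the κB letters of H2-D1, without gaps, and are shown because they hold genes with an open gene end in all 6 libraries (H2-K1, H2-D1, H2-Q4, H2-Q6 and H2-Q7) beside a close relative with none (H2-Q10). Capitals mark GGGGATTCC (part of the κB site) and, on the other strand, GAANNGAAA (part of the interferon element, with a spacing chosen after these sequences were seen).
H2-K1: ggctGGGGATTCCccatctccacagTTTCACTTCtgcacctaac
H2-D1: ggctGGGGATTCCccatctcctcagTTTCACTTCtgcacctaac
H2-Q6: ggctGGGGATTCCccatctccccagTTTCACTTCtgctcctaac
H2-Q7: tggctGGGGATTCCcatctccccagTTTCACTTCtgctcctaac
H2-Q4: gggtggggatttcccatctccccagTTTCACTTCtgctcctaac
H2-Q10: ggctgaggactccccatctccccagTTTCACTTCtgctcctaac

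Their positions are chr17:34000419-34000462 (− strand, H2-K1), chr17:35262919-35262962 (+ strand, H2-D1), chr17:35424673-35424716 (+ strand, H2-Q6), chr17:35439017-35439060 (+ strand, H2-Q7), chr17:35379439-35379482 (+ strand, H2-Q4) and chr17:35469909-35469952 (+ strand, H2-Q10). The H2-K1 stretch differed from that of H2-D1 at 1 base, H2-Q6 at 2, H2-Q4 and H2-Q10 at 4 each, and H2-Q7, in this alignment without gaps, at 9. GGGGATTCC was found in H2-K1, H2-D1, H2-Q6 and H2-Q7 and in no other H2 promoter of the table, and in 0.25% of all promoters. The GAANNGAAA letters were in 2 of 2 classical, 4 of 5 Q, 0 of 4 T, 2 of 12 M and 0 of 8 class II genes and in 7.52% of all promoters. The other spacing, GAAANNGAA, was in H2-T23 and H2-T22 alone among the H2 promoters and in 8.56% of all. H2-Q4, with an open gene end in 6 of 6 libraries, and H2-Q10, with none, had equally many differences from H2-D1 in this window. Within the κB letters their differences were not at the same bases, so an equal count does not make the 2 stretches alike. Whether any of these letters bears on an open gene end was not tested.

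A gene was counted as open at its end where at least 1 bp of a peak lay within 1 kb of either end of its record, since the gene table gives neither strand nor exons. By this measure 20 of 35 H2 genes (57.1%) were open in all 6 libraries, against 49.5% of all protein-coding genes, and 13 were open in none, against 40.6% of all genes. Among the 134 other protein-coding genes that lie between the outermost H2 genes, 71 (53.0%) were open in all 6. The share of open H2 genes was therefore near the background, and it divided sharply by class. Both classical class I genes and all 9 class II genes were open in 6 of 6 libraries, as were 4 of 5 T genes and 3 of 6 Q genes. Only 1 of 12 M genes, H2-M3, was open in any library.

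**Figure D1:**
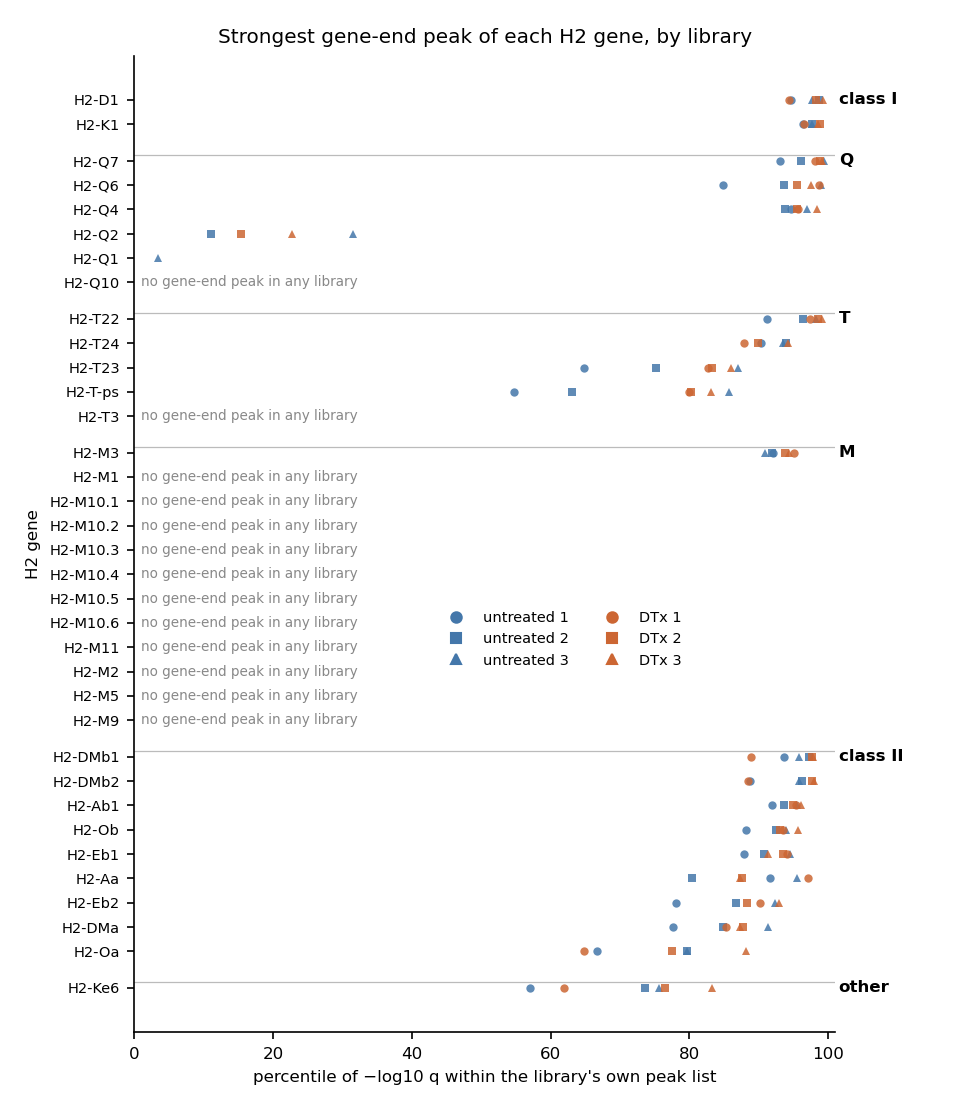
Each row is an H2 gene, grouped by class, and each point is a library: the percentile of −log10 q of the gene's strongest gene-end peak within that library's own list (x axis, 0 to 100), with untreated libraries in blue and DTx libraries in orange. The classical genes lie at 94.4 or above and the class II genes at 64.7 or above in every library, the T genes with points range from 54.6 to 99.1, and 11 of the 12 M genes have no point.

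To say how strong a gene-end peak was, the strongest one (highest −log10 q) was ranked within its own list, so that the 95th percentile means that 95% of that library's peaks had a −log10 q at or below it. The −log10 q, fold enrichment and pileup of each peak are the authors' own values. Over all genes with a gene-end peak, the median percentile was 78.3 to 85.2 across the libraries, and over the neighbouring genes 75.4 to 86.9. Ranks from lists of different length cannot show whether there is a change between groups, so the values below only describe each library.

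The classical class I genes were in the top few percent of every list. At H2-K1 (chr17:33996012-34000619), a heavy chain gene at the centromeric edge of the complex, the percentile was 96.4, 97.7 and 97.6 in untreated 1, 2 and 3 and 96.5, 98.8 and 98.6 in DTx 1, 2 and 3. At H2-D1 (chr17:35263094-35267497), the other classical heavy chain gene, it was 94.7, 98.6 and 97.7 in the untreated and 94.4, 98.3 and 99.2 in the DTx libraries. The groups overlapped at both genes, and in both the peak covered the RefSeq start site and the κB and interferon letters upstream of it. These peaks were compact, with a median length of 593 bp at H2-K1 and 526 bp at H2-D1, and their fold enrichment over background, a ratio, was 7.90 to 19.4 and 6.22 to 12.0.

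The Q genes split into open and closed members. H2-Q4 (chr17:35379617-35384674) had percentiles of 94.6, 93.8 and 97.0 in the untreated and 95.7, 95.5 and 98.4 in the DTx libraries. H2-Q6 (chr17:35424850-35430055) had 84.9, 93.6 and 98.9 against 98.6, 95.5 and 97.5. H2-Q7 (chr17:35439140-35443773), whose product is one of the Qa-2 antigens, had 93.1, 96.0 and 99.3 against 98.1, 98.8 and 99.0. All 3 genes lay below both classical genes in untreated 1 and 2. H2-Q6 and H2-Q7 lay above both in untreated 3 and DTx 1, the 2 lists with a summit column. In DTx 2, H2-Q7 alone lay above both, narrowly (98.8 against 98.77 at H2-K1). Untreated 1 was the lowest library at H2-Q6 and H2-Q7. H2-Q2 (chr17:35342307-35346764) had a weak peak in 4 libraries, at the 11.0 and 31.5 percentile in untreated 2 and 3 and 15.3 and 22.6 in DTx 2 and 3. H2-Q1 (chr17:35320525-35328142) had a peak in untreated 3 alone, at the 3.35 percentile. H2-Q10, known as a gene of the liver whose product is secreted, had none. In the equal-length lists the peaks of H2-Q1 and H2-Q2 dropped out in every library, and 20 H2 genes were open in each of the 6.

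Of the T genes, H2-T22 (chr17:36037128-36042742), which encodes a β2-microglobulin-bound ligand of some γδ T cell receptors, ranked highest, with percentiles of 91.1, 96.4 and 98.3 in the untreated and 97.3, 98.5 and 99.1 in the DTx libraries. H2-T24 (chr17:36003471-36020800) had 90.3, 93.9 and 93.5 against 87.8, 89.8 and 94.3. H2-T23 (chr17:36029977-36032701) encodes Qa-1, which presents leader peptides of other class I chains to the CD94-NKG2A receptor, and it had 64.8, 75.2 and 87.0 against 82.7, 83.3 and 86.0. At both H2-T22 and H2-T23 the groups overlapped and untreated 1 was the lowest library. H2-T-ps (chr17:36109030-36111723) ranged more widely, with 54.6, 63.1 and 85.7 in the untreated and 79.9, 80.2 and 83.1 in the DTx libraries. H2-T3, the thymus leukaemia antigen gene of the gut epithelium, was without a gene-end peak in every library. The gene-end peaks of H2-T24 and H2-T23 also lay within 1 kb of a long noncoding RNA gene, A930015D03Rik, and that of H2-T22 within 1 kb of Gm6034, so these peaks cannot be given to the H2 gene alone. The same holds for H2-T-ps and BC023719.

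The M genes were the closed class. H2-M3 (chr17:37270234-37274485), which presents N-formylated peptides of bacteria, was the exception, with percentiles of 92.0, 91.9 and 90.9 in the untreated and 95, 93.8 and 94.3 in the DTx libraries. The DTx values were all higher in the full lists, but in the equal-length lists they were 93.9, 90.5 and 90.6 against 92.0, 90.6 and 86.0, and the groups overlapped. The H2-M3 peak was long and steady, 1257 to 1334 bp in the 6 libraries. H2-M1, H2-M2, H2-M5, H2-M9, H2-M10.1, H2-M10.2, H2-M10.3, H2-M10.4, H2-M10.5, H2-M10.6 and H2-M11 were without a gene-end peak throughout. The M10 and M1 groups are known as partners of vomeronasal receptors. The Y box letters CTGATTGG were nonetheless present in the promoters of 8 of these 11 closed genes, so the letters alone did not separate open from closed members. H2-M2, H2-M1, H2-M9, H2-M11 and H2-M10.4 also had no peak within 10 kb in any library.

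All 9 class II genes were open in every library. H2-Ab1 (chr17:34263227-34269418) encodes the β chain of the I-A molecule and had percentiles of 91.9, 93.6 and 95.4 in the untreated and 95.4, 94.9 and 96.1 in the DTx libraries. Its partner H2-Aa (chr17:34282744-34287823), the I-A α chain gene, had 91.6, 80.4 and 95.5 against 97.1, 87.6 and 87.3. The groups overlapped at both genes, and H2-Aa varied more between libraries. At H2-Aa the strongest peak was 804 bp long in untreated 1 and 1074 bp in DTx 1, and 2345 to 3096 bp in the other 4 libraries, so a single long peak stood for the gene in those 4. The I-E β chain gene H2-Eb1 (chr17:34305867-34316674) had percentiles of 87.8, 90.7 and 94.5 in the untreated and 94.1, 93.5 and 91.4 in the DTx libraries. H2-Eb2 (chr17:34325503-34341410), a relative of H2-Eb1, had 78.0, 86.7 and 92.4 against 90.2, 88.4 and 92.8. In both, the values of the groups interleaved.

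The nonclassical class II genes encode the chaperones of peptide loading: H2-DM exchanges the invariant chain fragment for peptide, and H2-O, made mainly in B cells, restrains H2-DM. H2-DMa (chr17:34119693-34139101) had percentiles of 77.6, 84.9 and 91.3 in the untreated and 85.2, 87.7 and 87.2 in the DTx libraries, at a peak that also lies within 1 kb of Brd2. H2-DMb1 (chr17:34153191-34160229) had 93.5, 97.2 and 95.8 against 88.9, 97.6 and 97.8. H2-DMb2 (chr17:34143229-34151553) had 88.7, 96.3 and 95.8 against 88.4, 97.6 and 98.0, and in untreated 3 and DTx 2 its strongest gene-end peak was the one over the start of H2-DMb1, within 1 kb of both genes. H2-Ob (chr17:34238905-34245908), the H2-O β chain gene, had 88.2, 92.5 and 94.0 against 93.5, 93.1 and 95.7. H2-Oa (chr17:34092379-34095234), the α chain gene, had the lowest median over libraries in the class, with 66.7, 79.6 and 79.6 against 64.7, 77.5 and 88.1, at a peak also within 1 kb of BC051537. In these 5 genes too the groups overlapped. H2-Ke6, the steroid dehydrogenase gene, had 57.1, 73.6 and 75.6 against 61.9, 76.4 and 83.3, at a peak shared with Slc39a7.

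The class II gene ends ranked high by −log10 q but not by fold enrichment. The class median percentile of −log10 q was 88.2 to 94.5 over the libraries, and that of the fold enrichment of the same peaks was 39.5 to 56.9, against 68.7 to 77.0 over all genes with a gene-end peak. For the other classes the fold percentile was 77.2 to 89.0 (classical class I), 80.7 to 99.5 (Q), 75.1 to 90.2 (T) and 69.5 to 80.1 (H2-M3). H2-Eb1 was lowest among the class II genes by the median over libraries, at the 18.5 percentile of fold enrichment, followed by H2-Aa at 27.8, H2-DMa at 35.2 and H2-Ab1 at 39.5. H2-DMb1, at 94.5, was above the range of all genes and H2-Oa, at 70.9, was inside it. The gap to all genes was there in both layouts: in the 2 lists with a summit column the class II median was 54.5 (untreated 3) and 56.9 (DTx 1), against 77.0 and 74.7 over all genes. Several class II peaks were long, with a median over libraries of 2360 bp at H2-Aa, 1944 bp at H2-Eb1, 1714 bp at H2-Ob and 1437 bp at H2-Eb2, while the median gene-end peak over all genes was 715 to 982 bp. Low fold was also seen at shorter peaks: H2-DMa had a median of 864 bp and H2-DMb2, at the 47.8 percentile of fold enrichment, 467 bp. These peaks were not over the start sites of their genes: the H2-DMa region lay 2639 bp and that of H2-DMb2 1735 bp from the nearest. In untreated 3 and DTx 2 the H2-DMb2 values are those of the peak over the H2-DMb1 start. This is a description of 9 genes in 6 lists. H2-Ob and H2-Eb2, also long, were at median fold percentiles of 53.8 and 65.7. H2-Ab1, with a median of 1113 bp, was at 39.5. The shorter peaks of H2-DMb1 (856 bp) and H2-Oa (677 bp) were at 94.5 and 70.9. Whether peak length bears on the fold enrichment was not tested.

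**Figure D2:**
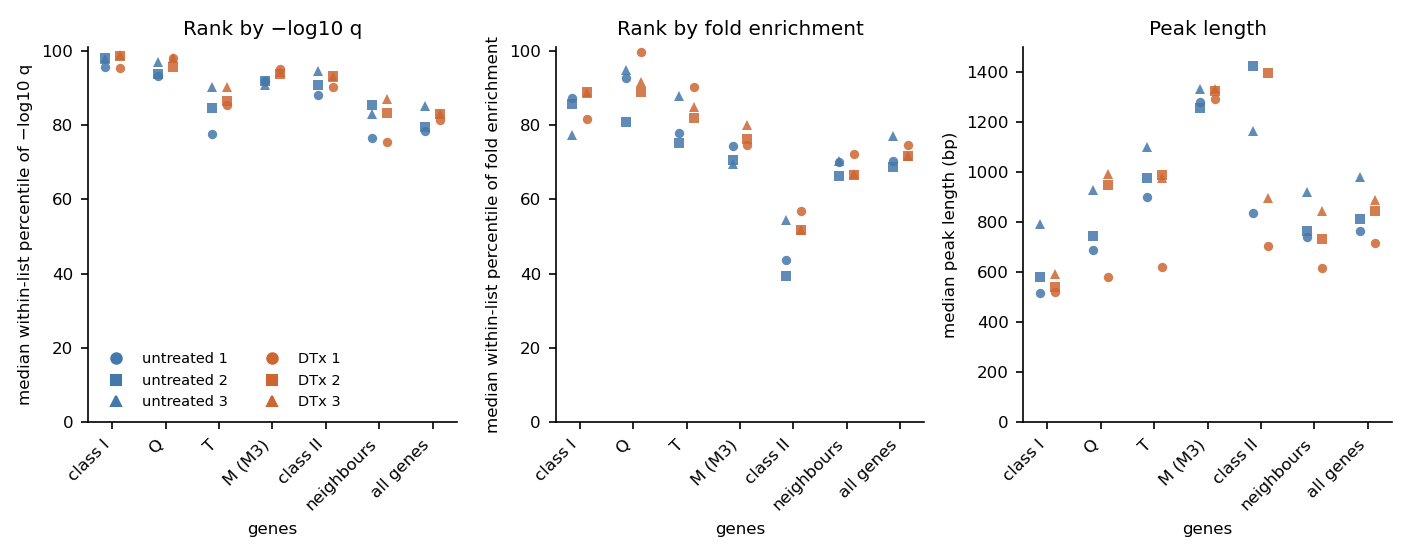
Each point is the median of a class in 1 library (untreated blue, DTx orange) for the strongest gene-end peaks: within-list percentile of −log10 q (left), within-list percentile of fold enrichment (middle) and peak length in bp (right), with the neighbouring and all protein-coding genes at the right of each panel. Class II genes are at 88.2 to 94.5 in the left panel and fall to 39.5 to 56.9 in the middle one, below the 68.7 to 77.0 of all genes.

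Peaks of the 6 lists were then merged into 70174 regions, and 96 of these lay in an H2 gene or within 10 kb of one. Of the 96, 50 (52.1%) were called in all 6 libraries, against 44.1% of all regions, 31 in 2 to 5 libraries and 15 in 1. Within 1 kb of a gene end 21 of 30 were called in all 6, in gene bodies 6 of 13 and outside the genes 23 of 53. Class II genes held 48 of the regions, 30 of them called in all 6, and the Q genes 18, of which 4 were. The classical genes held 7, the T genes 13 and the M genes 7.

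The strongest class II regions were not at the gene ends. Over the 96 regions, 7 were at or above the 95th percentile in all 6 libraries, against 1.82% of all regions, and 5 of the 7 were nearest to a class II gene, the class that holds 48 of the 96. Highest in every library but untreated 1 was chr17:34347402-34348269, which lies 5992 bp beyond H2-Eb2, past the H2-Ea pseudogene. It had percentiles of 98.6, 99.8 and 99.9 in the untreated and 99.7, 99.8 and 99.9 in the DTx libraries. The region chr17:34257431-34258117, 5110 bp from H2-Ab1 and narrowly the highest in untreated 1, had 98.7, 99.5 and 99.1 against 98.7, 99.5 and 99.7. Both stood above the gene-end peak of their own gene in every library, and the groups overlapped in both.

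A further region at chr17:34293382-34294452, between H2-Aa and H2-Eb1 and 5559 bp from the start site of H2-Aa, had percentiles of 97.5, 98.9 and 98.7 against 97.4, 98.9 and 99.5. Inside H2-DMa, chr17:34135308-34135997 had 97.8, 99.4 and 99.4 against 98.4, 99.6 and 99.7. The only class II region of the 5 that covers a RefSeq start site was chr17:34144726-34145575, over the start of H2-DMb2 used for the stretch printed above, with 98.2, 99.6 and 99.1 against 98.3, 99.7 and 99.9. The remaining 2 of the 7 were the H2-K1 gene end and chr17:36121064-36122159, at the pseudogene H2-T10 and 9341 bp from H2-T-ps, with 95.6, 98.0 and 99.3 against 98.7, 98.7 and 98.8. Just inside the line of 95 was this last region, with a lowest percentile of 95.6, and just outside it were the H2-D1 gene end at 94.4 and a region at chr17:34300844-34301695, 4172 bp from the start site of H2-Eb1, at 93.9.

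**Figure D3:**
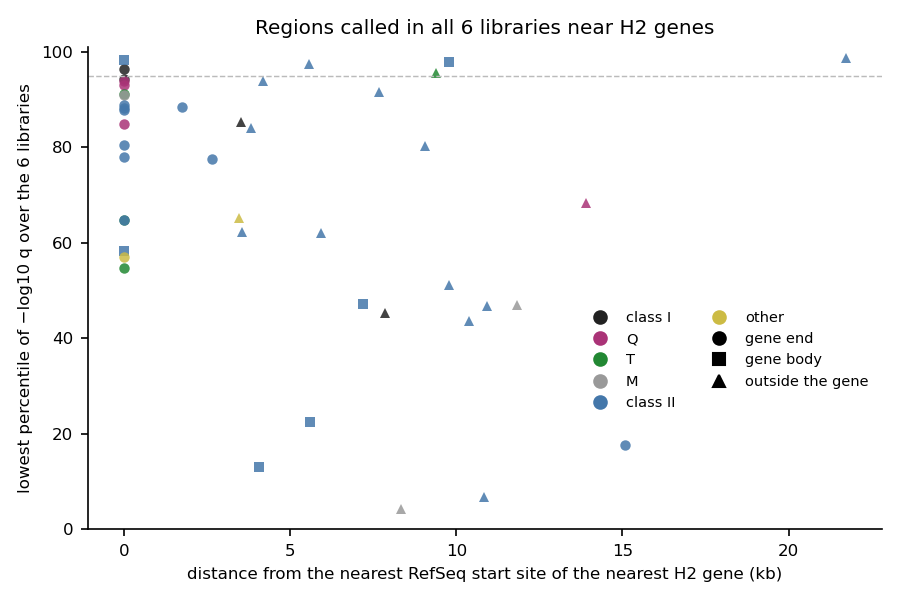
Each point is a region called in all 6 libraries near an H2 gene with a start site in the promoter table (44 regions): the distance in kb from the nearest start site of the nearest H2 gene (x axis) and the lowest percentile of −log10 q over the 6 libraries (y axis), coloured by class, with circles for gene ends, squares for gene bodies and triangles outside the gene. The dashed line is the 95th percentile, and 3 of the class II points above it lie more than 5 kb from a start site.

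Between the groups, no H2 gene end was called in every library of one group and in none of the other. A gene end with a peak in all 3 DTx libraries and none of the untreated ones was found at 0 of 35 H2 genes and at 0.0367% of all genes (8 of 21774), and the opposite at 0 of 35 and 0.00459% (1 of 21774). The number of H2 genes open at a gene end was 20, 21 and 22 in the untreated and 20, 21 and 21 in the DTx libraries (21 ± 1 and 20.7 ± 0.577, SD, n = 3, exact two-sided permutation test p = 1). The 20 relabellings of 3 against 3 libraries cannot give a p below 0.1. The classical, T, M and class II counts were 2, 4, 1 and 9 in every library, and the Q genes gave 3, 4 and 5 against 3, 4 and 4.

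Nor did any of the 96 regions near H2 genes separate the groups. None was called in all DTx and no untreated libraries, where 0.705% of all regions were, and none in all untreated and no DTx libraries, where 0.0242% of all regions were. There were 6 regions called in DTx 2 and DTx 3 alone, 8 in DTx 3 alone and 5 in untreated 3 alone. The shares of these patterns over all regions are not given here, so the counts cannot be set against a background. These 3 libraries have the longest lists, and whether list length accounts for the counts was not tested. At the 20 genes ranked in every equal-length list, the 3 DTx and the 3 untreated percentiles overlapped at all 20. Over all 10175 genes so ranked, all 3 DTx values were above the untreated ones at 1.22% and all 3 untreated values above the DTx ones at 7.82%.

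The number of peaks near H2 genes followed the length of the lists. In an H2 gene or within 10 kb there were 54, 64 and 86 distinct peaks in the untreated and 65, 80 and 91 in the DTx libraries (68 ± 16.4 and 78.7 ± 13.1, SD, n = 3), a difference of 10.7 that did not pass the exact two-sided permutation test (p = 0.4, adjusted p = 0.7 over 6 sets). In order of list length the counts ran 54, 64, 65, 80, 86 and 91. In the equal-length lists they were 54, 60 and 72 against 57, 68 and 71, and the difference was 3.33 (exact permutation p = 0.8). Class II genes had 32, 35 and 43 peaks against 37, 40 and 46 (exact permutation p = 0.4, adjusted p = 0.7), and in the equal-length lists 32, 34 and 36 against 33, 35 and 38. The T genes had 8, 9 and 14 against 12, 14 and 14, the Q genes 4, 6 and 13 against 5, 10 and 14, the classical genes 4, 6 and 7 against 5, 7 and 8, and the M genes 3, 5 and 6 against 4, 6 and 6. None of these classes passed the test (exact permutation p between 0.4 and 0.7), and in each the groups overlapped.

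**Figure D4:**
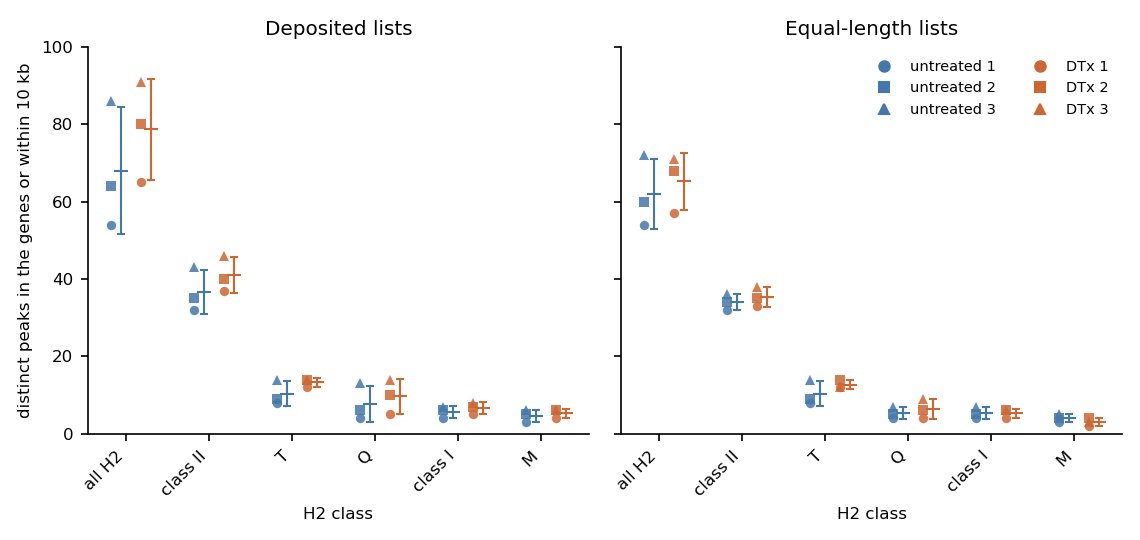
Distinct peaks in the H2 genes or within 10 kb of them (y axis), by class, in the deposited lists (left) and the equal-length lists (right), with 1 point per library (untreated blue, DTx orange) and the group mean ± SD (n = 3) beside the points. For all H2 genes the group means are 68 and 78.7 in the left panel and 62 and 65.3 in the right one, and the points of the groups overlap.

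The bases under peaks of the equal-length lists in each gene or within 10 kb were compared over all genes with limma, on log2(bases + 200) with the list layout as a term and genes with a mean of at least 300 bases. Of 14412 genes tested, 0% were called higher and 0% lower in DTx at a Benjamini-Hochberg adjusted p of 0.05, with 58 higher and 327 lower at an unadjusted p under 0.05 and a smallest adjusted p of 0.0581. The filter left 24 of the 35 H2 genes, of which 0 were called, 0 were higher and 1 was lower at an unadjusted p under 0.05, and 11 differences were positive and 13 negative. The median log2 difference, DTx minus untreated, was −0.02 over these 24 genes and −0.00443 over all genes tested. All 9 class II genes were among the 24, with differences between −0.21 and 0.34.

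The lowest p was at H2-M10.5, one of the closed genes, whose peaks within 10 kb all lie in a region whose near edge is 8348 bp from the gene. It had 271, 1153 and 1015 bases under peaks in the untreated and 0, 266 and 0 in the DTx libraries. The groups narrowly did not overlap in the equal-length lists (271 against 266). The share of all genes separated in this way is not given here, so it cannot be set against a background. The log2 difference was −1.79 ± 0.66 (SE, limma adjusted p = 1), and it is a difference on the log2(bases + 200) scale. In the full lists the bases were 271, 1153 and 1015 against 244, 640 and 1220, the groups overlapped and the difference was −0.18 (limma adjusted p = 1). At H2-Aa the bases were 2820, 3869 and 4250 in the untreated and 3015, 4998 and 6504 in the DTx libraries, a log2 difference of 0.34 ± 0.30 (SE, limma adjusted p = 1). H2-Oa had 1247, 1721 and 2055 against 1596, 2027 and 2342, a log2 difference of 0.23 ± 0.24 (SE, limma adjusted p = 1). At both genes DTx 3 was the highest library and the groups overlapped. A p that misses the threshold does not show that the groups are alike. Bases under peaks do not show differences in height within an open site, and the pileup and fold enrichment of the peaks were not tested between the groups.

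**Figure D5:**
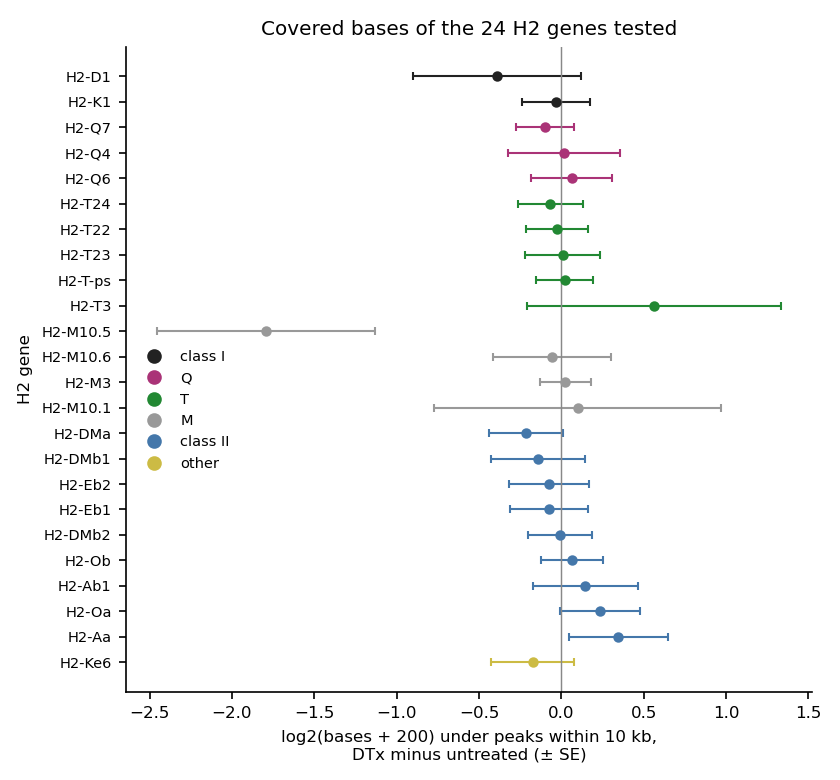
Log2 difference in bases under peaks of the equal-length lists within 10 kb, DTx minus untreated (x axis, on log2(bases + 200)), for the 24 H2 genes tested, coloured by class, with points for the limma estimate and bars for ± 1 SE. All but H2-M10.5 (−1.79) lie between −0.39 and 0.56, and no gene passed the adjusted threshold.

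The other genes of antigen presentation, a list of 26, were open as a rule: 22 had 1 or more gene-end peaks in every library, against 49.5% of all protein-coding genes. Each untreated library held 22 of the 26 and each DTx library 23. For class I, B2m, which encodes β2-microglobulin, had percentiles of 93.8, 90.6 and 98.6 in the untreated and 98.9, 94.5 and 94.2 in the DTx libraries. Tap1, a subunit of the peptide transporter, and Psmb9, a subunit of the immunoproteasome, share a peak that had 90.2, 96.6 and 98.1 against 91.2, 97.0 and 98.2. The chaperone genes Canx and Calr were at or above 98.5 in every library, and Nlrc5, the class I transactivator, was at 80.2 to 88.1.

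For class II, Cd74, which encodes the invariant chain, had percentiles of 97.3, 98.7 and 97.0 in the untreated and 97.0, 98.8 and 90.6 in the DTx libraries. The X box factor genes Rfxank and Rfxap were at 93.7 to 98.9 and 86.9 to 92.7, and the NF-Y genes Nfya and Nfyb at 96.1 to 97.8 and 88.3 to 91.8. Rfx5, another RFX subunit, and Ciita, the class II transactivator, lacked a gene-end peak in all 6 libraries by this measure, although every class II gene was open. Ciita is known to have several start sites, and those inside its gene record are not covered by the measure. Nfyc had a weak one in DTx 1 (4.14) and DTx 2 (22.2), and Marchf1, a ubiquitin ligase acting on class II, in DTx 3 (6.45). These 2 genes account for the 23 against 22, and neither was called in 3 of 3 DTx libraries.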

How the data were processed

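Per the submitters' processing notes, Trim Galore 0.4.3, Bowtie2 2.3.2 and MACS2 2.1.1 were used with mm10. Settings, removal of duplicates, shifting for the Tn5 cut and treatment of reads that fit several of the near-identical H2 genes were not stated in the sources used. The authors deposited 1 peak list per library with pileup (a coverage signal) and fold enrichment (a ratio), per the file headers. The deposited −log10 p and −log10 q columns have damaged headers and were identified from their order and values. Mitochondrial peaks (2 per list) were not used. Coordinates are 1-based. The gene table has 21887 protein-coding rows on these chromosomes, of which 113 on alternate loci were left out. Values per library were compared by an exact two-sided permutation test, and covered bases with limma 3.58.1 (trend, robust) in R 4.3.3, tested on simulated data. Other steps used Python 3.11.15, NumPy 2.4.6, pandas 2.3.3, SciPy 1.17.1 and matplotlib 3.10.9. Every H2 gene is named, with the 3 of lowest limma p in full. The genes, lists and tests were chosen with earlier results of these data known, and the ranks in equal-length lists by gene, GATTGG and GAANNGAAA were added after seeing the data. Alternatives covered the distances, list length, threshold, layout, pseudocount, filter, rank and each library left out.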

Additional observations from a re-analysis of the deposited data

How the results depend on the processing

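Read totals are unknown, so a gene end with no peak is one not called at an unknown depth, and intervals cannot be given. With each library left out in turn, the difference (DTx minus untreated) in open H2 gene ends ran from −0.833 to 0.167, and in Q gene ends from −0.833 to 0.167, with the sign turned without untreated replicate 3. In lists with no summit column alone it was 0.5 for both, and in the 2 lists with one it was −2 for both. The difference in peaks within 10 kb ran from −0.167 to 4.67 for Q genes (turned without DTx replicate 3) and from −0.167 to 1.33 for M genes (turned without untreated replicate 1), and it was −1 for M genes in the equal-length lists. For all H2 genes it ran from 3.67 to 19.7 and for class II genes from 1.83 to 7.5. No test of these passed under any alternative run, and none could. The exact permutation p cannot fall below 0.1, nor the sign-flip p below 0.25. Genes open at an end in one group only became 15 (DTx) at 2 kb, and 71 (untreated, equal-length lists) or 3 (untreated, 500 bp), over all genes. Ranked by fold enrichment, the median percentile was 86.4 for classical, 92.1 for Q, 74.4 for M and 51.9 for class II genes. Ranked by pileup it was 94.9 for M and 95.7 for class II genes, and within the equal-length lists 90.6 and 88.7. For genes lower in DTx over all genes, limma called 1 without the layout term and 2 with the replicate block, and 0 H2 genes under any alternative run. The cause of these changes was not tested. Same-numbered libraries deviated together with correlations of 0.365, 0.0435 and 0.202, and not every library correlated best with its own number, so the numbers were not taken to pair the libraries. With the replicate block, the difference in peaks within 10 kb of H2 genes was 10.7 (exact sign flips p = 0.25, the smallest possible), and limma's adjusted p was 0.626 at H2-M10.5.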

Other observations

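A peak within 1 kb of a gene end was looked for at the H2 pseudogenes too. Of 11 H2 pseudogenes on chromosome 17 in the gene table, 5 had 1 at a gene end in all 6 libraries, 1 in 3 libraries and 5 in none, against 49.5% of all protein-coding genes open in all 6 and 40.6% in none. H2-K2, beside H2-K1, had percentiles of 93.8, 96.2 and 97.9 in the untreated and 95.1, 98.1 and 98.7 in the DTx libraries. H2-T10 had 95.6, 98.0 and 99.3 against 98.7, 98.7 and 98.8. H2-Q5 was at 68.2 to 84.7 over the libraries, H2-Ea, the I-E α chain gene, at 17.7 to 67.8 and H2-Bl at 10.04 to 38.5. H2-Q3 had a peak in untreated 2, untreated 3 and DTx 3, between 3.85 and 14.3. H2-Pb, H2-Pa, H2-M10.5-ps1, H2-M6-ps and H2-M4-ps had none.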
